A study of Mus musculus with 36 samples.

Results

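The difference between the genotype effect at ZT16 and the genotype effect at ZT8 was measured for each gene in mouse liver. Zeitgeber time (ZT) counts hours from lights on, and lights went off at ZT12, so ZT8 lies in the rest phase of the mouse and ZT16 in its active phase. The quantity is knockout minus control at ZT16, from which knockout minus control at ZT8 is subtracted, on the log2 scale. It used 24 of the 36 arrays of the series, 6 in each of 4 groups, and was tested for 22892 genes. All mice were C57BL/6J males of 11 weeks with free access to chow. The groups were ZT8 controls, ZT8 knockouts, ZT16 controls and ZT16 knockouts, and the 12 arrays of ZT12 entered the filter on dim probes and the fit's spread and batch terms but not the difference itself. Knockouts (IRLKO, IRhep-/-) carried floxed alleles around the fourth exon of the insulin receptor gene Insr and a tamoxifen-inducible Cre driven by the transthyretin promoter (TTR-CreTam), which acts in hepatocytes. Controls (IRLWT, IRhep+/+) kept an intact Insr. The time of tamoxifen treatment, and whether controls had the Cre, are not in the labels. Each array held liver RNA of a separate sample, and the labels do not say in words that each came from a different mouse, so p-values measure the spread between these samples.

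Insulin is released with feeding and acts on hepatocytes through the receptor kinase that Insr encodes. The signal passes through PI3-kinase and AKT, which restrain FoxO transcription factors and promote lipid and glycogen synthesis. Mice eat mostly at night, and the hepatic circadian clock, a loop in which CLOCK and BMAL1 drive Per, Cry and Rev-erb genes that repress them in turn, gives many liver transcripts a daily rhythm. Feeding and the clock are both known to shape daily changes of liver transcripts.

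A level is given as log2 signal relative to the array's 75th percentile, so 0 is the level of the spot at that percentile. For each group of 6 arrays the lowest, median and highest level are given. A gene is called when the adjusted p of limma's moderated test (Benjamini-Hochberg over all genes) is under 0.05, and "rose", "fell", "higher" and "lower" are used for called changes. On the 24 arrays the 75th percentile signal ran from 311 to 495 intensity units over a local background of 18 to 31, and 53.7% to 63.1% of spots were well above background. The arrays are bulk tissue, in which fewer cells of a type and less RNA per cell cannot be told apart. Hepatocyte markers such as Alb and Ttr were well above background in every group, and their summed linear level ran from 5391 to 8813 over the 24 arrays, where 1 is the 75th percentile.

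Insr itself checked the labels. Its level in ZT8 controls had a lowest value of -1.81, a median of -1.40 and a highest of -1.01, and in ZT8 knockouts -3.54, -3.05 and -2.94. In ZT16 controls the 3 values were -1.85, -1.70 and -1.24, and in ZT16 knockouts -3.75, -3.18 and -3.08. No knockout array reached the level of any control array at either time. Insr was lower in knockouts by 1.77 at ZT8 (adjusted p = 1.2e-11) and by 1.65 at ZT16 (adjusted p = 2.9e-11) on the log2 scale. The difference between these effects was 0.12 ± 0.19 (SE, adjusted p = 0.79). These values are from the brighter Insr probe, at chr8:3155472-3155531 (mm9), and whether it reads the deleted exon was not determined here. A dimmer probe gave smaller effects of -0.95 at ZT8 and -0.59 at ZT16, a difference of 0.35 (adjusted p = 0.52).

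Knockout ZT8 replicate 3 stood apart from the other 5 ZT8 knockouts. On the second principal component of the 24 arrays, which held 16.4% of the variance, it scored 4.07 and the others 26.8 to 42.3. Summed marker levels in it were 15.0 for neutrophils against 2.50 to 5.96 in the other ZT8 knockouts, 8.34 for lymphocytes against 3.81 to 4.93, and 119 for stellate cells and fibroblasts against 45.0 to 76.6. Red blood cell markers were also above, at 404 against 191 to 331. Sums of hepatocyte (5391 against 5881 to 8062), exocrine pancreas (4.02 against 5.14 to 7.38) and adipocyte markers (0.40 against 0.49 to 0.70) were below. Macrophage, endothelial and bile duct sums lay within the range of the others. Without it 3250 genes were called for the difference, compared with 2233 with all arrays, and 2155 genes were called in both. Results that rest on this array are given with and without it.

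Of the 22892 genes, 2233 (9.75%) were called for the difference, 1246 (5.44%) with a positive and 987 (4.31%) with a negative sign. A positive sign means that knockouts stood higher relative to controls at ZT16 than at ZT8. The median size among called genes was 0.67 on the log2 scale, and 533 genes reached 2-fold. The gene just outside the threshold was Atl1, with a difference of 0.89 (adjusted p = 0.05). Among called genes, 2161 (96.8%) had the same sign within each of the 3 wash batches, a count that the choice of genes by this contrast largely sets. As a background, knockout minus control was called for 35.5% of genes at ZT8 and 40% at ZT16. The change from ZT8 to ZT16 was called for 26.6% in controls and 28.9% in knockouts. Of these changes with time, 3063 of 6086 in controls and 3536 of 6607 in knockouts were rises.

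The called genes were sorted by their genotype effects at both times, so the effects below describe each class and do not test it. A gene was lost when its effect was called at ZT8 but not at ZT16 and was smaller there, and gained when the reverse held. It was reversed when both effects were called with opposite signs, and weakened or strengthened when both were called with the same sign. Lost effects numbered 684 genes (2.99% of all genes), gained 889 (3.88%), reversed 220 (0.961%), weakened 173 (0.756%) and strengthened 241 (1.05%), and 26 had neither effect called. In the lost class 417 genes had a positive and 267 a negative difference. In the gained class the counts were 511 and 378, and in the reversed class 134 and 86. An effect that was not called at a time is not shown to be absent there. Without knockout ZT8 replicate 3 the lost class held 1019 genes, 629 of them shared, the gained class 1307 (772 shared) and the reversed class 328 (193 shared).

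**Figure D1:**
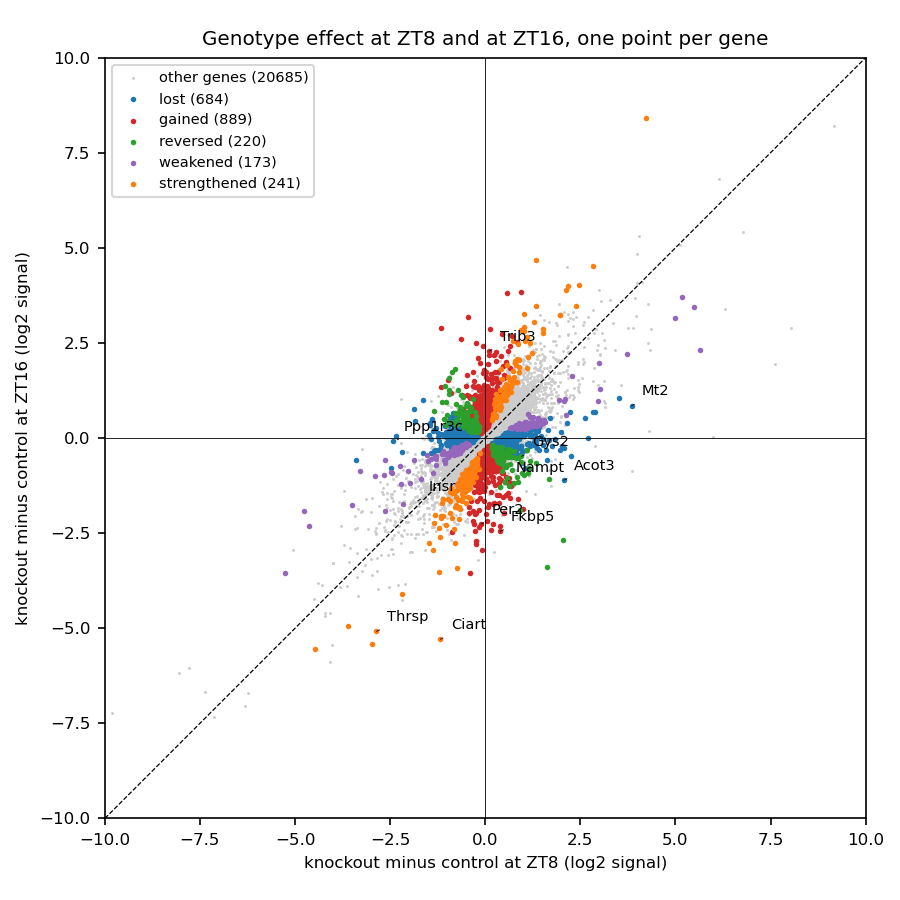
Knockout minus control at ZT8 (horizontal axis, log2 signal) against knockout minus control at ZT16 (vertical axis, log2 signal), with 1 point per gene and colours for the 5 classes. Lost genes lie along the horizontal axis, gained genes along the vertical axis and reversed genes in the upper left and lower right of the plot, while Insr lies on the dashed line of equal effects.

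The change with time that carried the difference was called in controls only for 765 genes and in knockouts only for 890. Both genotypes changed in the same direction for 243 genes and in opposite directions for 262, and neither change was called for 73. Of the 684 lost genes, 225 changed in controls only and 313 in knockouts only, and of the 889 gained genes 320 and 358 did so. When only the 24 arrays were fitted, 1943 genes were called, 1824 of them shared with the 2233, and 611 were lost, 770 gained and 197 reversed. At ZT12 the genotype effect was called for 49.0% of lost, 55.1% of gained and 22.7% of reversed genes, where 42.3% of all genes were called.

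The largest lost effects included glycogen, acyl-CoA and metal-binding genes. Ppp1r3c encodes a subunit that brings protein phosphatase 1 to glycogen (probe at chr19:36806457-36806516). Its level was 1.85, 2.52 and 3.05 (lowest, median, highest) in ZT8 controls and -0.62, 0.21 and 0.45 in ZT8 knockouts. At ZT16 it was 2.49, 2.69 and 3.26 in controls and 1.91, 2.69 and 3.18 in knockouts. The genotypes did not overlap at ZT8 and shared the same median at ZT16. The effect went from -2.42 at ZT8 to -0.08 at ZT16, a difference of 2.33 ± 0.46 (SE, adjusted p = 0.00096), and knockouts rose with time by 2.58 (adjusted p = 3.1e-07).

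Other low effects of ZT8 that were no longer called at ZT16 were those of Bbc3, Inca1 and Tert. Bbc3 encodes PUMA, a pro-apoptotic BH3 protein, and Tert the catalytic subunit of telomerase. Bbc3 went from -0.94 to 0.48, with a difference of 1.42 ± 0.30 (SE, adjusted p = 0.0018). Tert went from -1.29 to 0.26, with a difference of 1.55 ± 0.24 (SE, adjusted p = 9e-05), but its other probes gave 0.39 (adjusted p = 0.36) and -0.45 (adjusted p = 0.53). Inca1, an inhibitor of cyclin-CDK complexes, went from -1.05 to 0.31, with a difference of 1.36 ± 0.31 (SE, adjusted p = 0.004).

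Lost effects that were high at ZT8 included those of Acot3, Mt2, Nr4a2 and Lcn2. Acot3 is a peroxisomal acyl-CoA thioesterase (chr12:85400452-85400511). It measured -1.02, 0.93 and 2.37 in ZT8 controls, 1.04, 2.82 and 4.53 in ZT8 knockouts, 1.23, 1.49 and 2.18 in ZT16 controls and -0.08, 0.56 and 0.97 in ZT16 knockouts. Its effect went from 2.07 at ZT8, where the groups overlapped, to -1.11 at ZT16, where they did not. The ZT16 effect had an adjusted p of 0.059, and without knockout ZT8 replicate 3 the gene counted as reversed, with a difference of -3.62 in place of -3.17 ± 0.66 (SE, adjusted p = 0.0019). Nr4a2, an orphan nuclear receptor induced rapidly by hormones, went from 3.51 to 1.05, and its groups overlapped at neither time. Its difference was -2.46 ± 0.64 (SE, adjusted p = 0.011), and it counted as weakened without knockout ZT8 replicate 3. Lcn2, the acute phase protein lipocalin 2, went from 2.06 to -0.25, with a difference of -2.31 ± 0.65 (SE, adjusted p = 0.02, or 0.051 with the slide as a block).

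**Figure D2:**
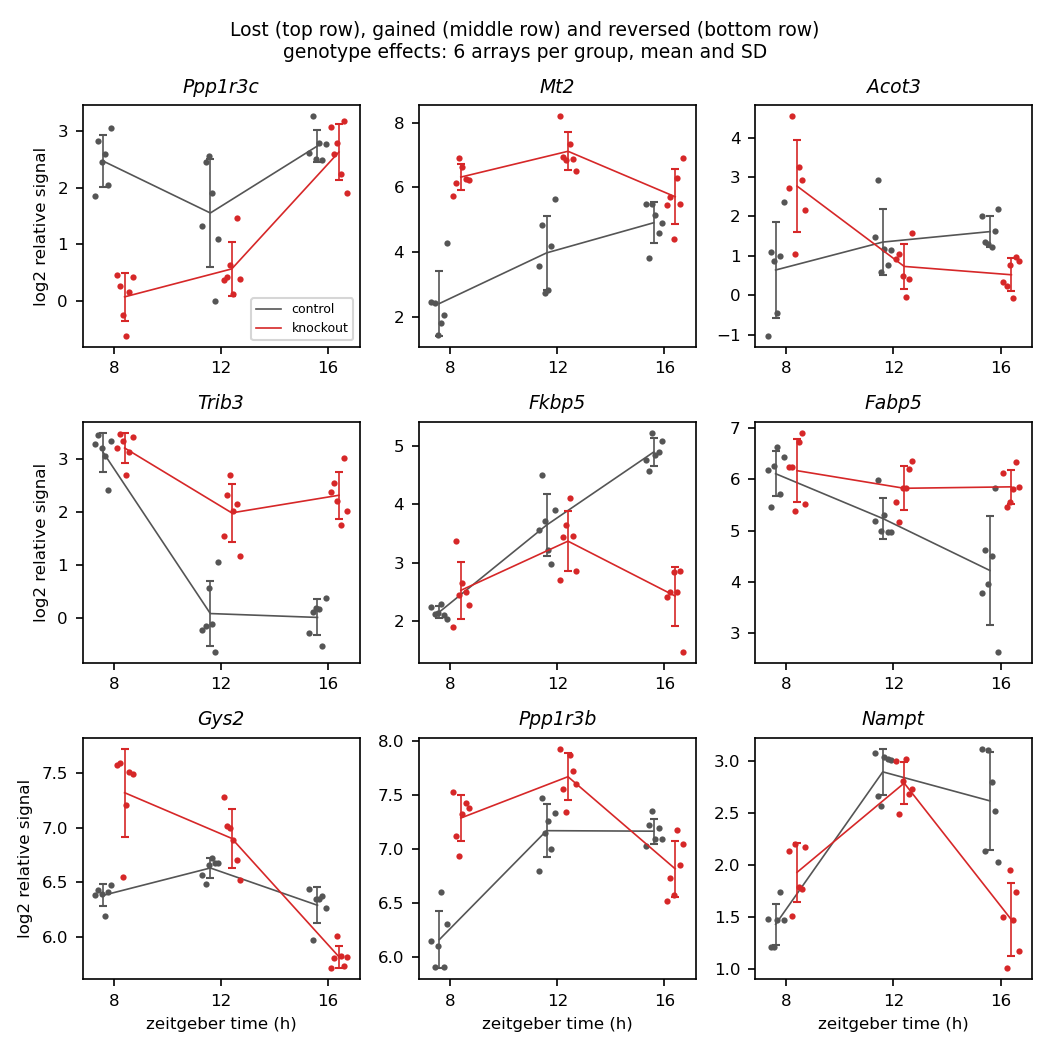
Log2 signal relative to the array's 75th percentile (vertical axis) at ZT8, ZT12 and ZT16 (horizontal axis, hours) for 9 genes in controls (grey) and knockouts (red); points are arrays, and lines join group means with SD bars (n = 6). In the top row Ppp1r3c and Mt2 come together by ZT16 while Acot3 crosses over, in the middle row they part, and in the bottom row they cross, as for Gys2 with an effect of 0.95 at ZT8 and -0.48 at ZT16.

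Trib3 gained a high effect. It encodes a pseudokinase induced by ATF4 that binds AKT (chr2:152163161-152163220). It measured 2.41, 3.24 and 3.45 in ZT8 controls and 2.69, 3.27 and 3.46 in ZT8 knockouts, then -0.52, 0.16 and 0.38 in ZT16 controls and 1.75, 2.28 and 3.01 in ZT16 knockouts. The groups overlapped at ZT8 and were apart at ZT16. Controls fell by 3.09 between the times and knockouts fell by 0.92, so the effect went from 0.11 to 2.29, a difference of 2.18 ± 0.36 (SE, adjusted p = 0.00021).

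Fabp5, a fatty acid binding protein, had the same shape. Its levels of 2.63, 4.23 and 5.83 in ZT16 controls stood beside 5.46, 5.83 and 6.34 in ZT16 knockouts, where 1 control array lay inside the knockout range. The effect went from 0.01 to 1.75, with a difference of 1.74 ± 0.43 (SE, adjusted p = 0.0085). Gnat1, a transducin subunit known from rod photoreceptors, went from -0.49 to 1.66, with a difference of 2.15 ± 0.42 (SE, adjusted p = 0.0009). Depp1, a FoxO target linked to autophagy, went from 0.28 to 2.27. Its call was narrow, at 1.99 ± 0.63 (SE, adjusted p = 0.041). The call was lost in 18 of 40 alternatives (adjusted p up to 0.083), among them the fit without knockout ZT8 replicate 3 (adjusted p = 0.055).

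On the lower side the gained effects included that of Fkbp5, a glucocorticoid-induced co-chaperone of steroid receptors (chr17:28536060-28536119). It measured 2.03, 2.14 and 2.30 in ZT8 controls, 1.91, 2.48 and 3.37 in ZT8 knockouts, 4.56, 4.86 and 5.22 in ZT16 controls and 1.48, 2.50 and 2.86 in ZT16 knockouts. The ZT16 controls stood above every other array of these groups. Controls rose by 2.73 (adjusted p = 9.5e-10) and the change in knockouts was -0.12 (adjusted p = 0.79), which gave a difference of -2.84 ± 0.35 (SE, adjusted p = 3.6e-06).

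St3gal5, the synthase of ganglioside GM3, behaved alike. Its level was 5.79, 6.09 and 6.25 in ZT16 controls against 3.39, 3.81 and 4.14 in ZT16 knockouts, with overlap at ZT8. The effect went from 0.20 to -2.27, a difference of -2.47 ± 0.26 (SE, adjusted p = 5.8e-07). Gpat3, which acylates glycerol 3-phosphate, went from 0.66 to -1.59, with a difference of -2.25 ± 0.61 (SE, adjusted p = 0.015). Lingo4, a leucine-rich repeat membrane protein, went from 0.85 to -1.60, with a difference of -2.45 ± 0.70 (SE, adjusted p = 0.022), a call lost in 4 of 40 alternatives (adjusted p up to 0.057). Both overlapped between genotypes at both times.

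Reversed genes changed sign between the afternoon and the night. Rfxank, a subunit of the RFX complex that activates MHC class II genes (chr8:72658563-72658982), was one of them. It measured -0.30, -0.14 and 0.15 in ZT8 controls and -1.60, -1.15 and -0.85 in ZT8 knockouts, then 0.05, 0.27 and 0.52 in ZT16 controls and 0.94, 1.09 and 1.60 in ZT16 knockouts. Genotypes were apart at both times, with knockouts below at ZT8 and above at ZT16. The difference was 2.07 ± 0.19 (SE, adjusted p = 9.5e-08), and the ZT12 effect of -0.11 (adjusted p = 0.55) lay between.

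H1f2, a linker histone, went from -0.96 to 1.59, with a difference of 2.55 ± 0.43 (SE, adjusted p = 0.00025). Spata22, a factor of meiotic recombination, went from -0.95 to 1.16, with 2.10 ± 0.29 (SE, adjusted p = 1.6e-05). Wwox, a WW-domain oxidoreductase, gave 2.62 ± 0.29 (SE, adjusted p = 7.1e-07) by its brightest probe. Its other 3 probes had a negative sign, and 1 of them was called at -0.84 (adjusted p = 3e-04), so Wwox has no settled direction. On the negative side Cys1, a cilium protein, went from 1.12 to -0.93, with -2.04 ± 0.31 (SE, adjusted p = 7.7e-05). Pdxp, a phosphatase of pyridoxal phosphate, went from 1.02 to -0.97, with -1.99 ± 0.26 (SE, adjusted p = 8.5e-06). Both were apart between genotypes at both times.

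Among genes with the same sign at both times, Nim1k, an AMPK-related kinase, weakened from -2.63 to -0.56, a difference of 2.07 ± 0.28 (SE, adjusted p = 1.6e-05). Vpreb3, known from B cell precursors, weakened from 3.72 to 2.21, with -1.52 ± 0.43 (SE, adjusted p = 0.021), a call lost in 4 of 40 alternatives (adjusted p up to 0.16). Adgrf1, an adhesion G protein-coupled receptor, strengthened from 1.03 to 3.25, with 2.22 ± 0.41 (SE, adjusted p = 0.0005). Thrsp, a nuclear regulator of lipogenic enzymes, strengthened from -2.86 to -5.08. Its level was 5.75, 6.87 and 7.09 in ZT8 controls, 3.07, 3.59 and 5.25 in ZT8 knockouts, 7.70, 8.21 and 8.53 in ZT16 controls and 2.51, 3.09 and 3.40 in ZT16 knockouts. The groups were apart at both times, and the gap widened as controls rose by 1.52 (adjusted p = 0.0005).

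The functions of the classes are described by 29 gene lists, each read by its count and its median beside those of all genes (9.75% called, median difference -0.01). The shares ranged from 4 of 5 PAR bZIP clock output genes to 0 of 24 ribosome biogenesis genes, where 1 was called without knockout ZT8 replicate 3. Clock genes, heat shock genes and glycogen genes had the largest shares among lists of at least 12 members. Near or below the background were FoxO targets and gluconeogenesis (2 of 17), glutathione and NRF2 genes (3 of 29), immediate early genes (1 of 16), insulin and TOR signalling (1 of 21), cell cycle (1 of 22) and cholesterol synthesis (1 of 24). Without knockout ZT8 replicate 3 the counts were 6 of 17 for FoxO targets and gluconeogenesis, 2 of 21 for insulin and TOR signalling and 3 of 22 for cell cycle. In that fit 3250 of all 22892 genes were called, a larger share than 9.75%. List counts without that array, here and below, are to be read beside it.

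**Figure D3:**
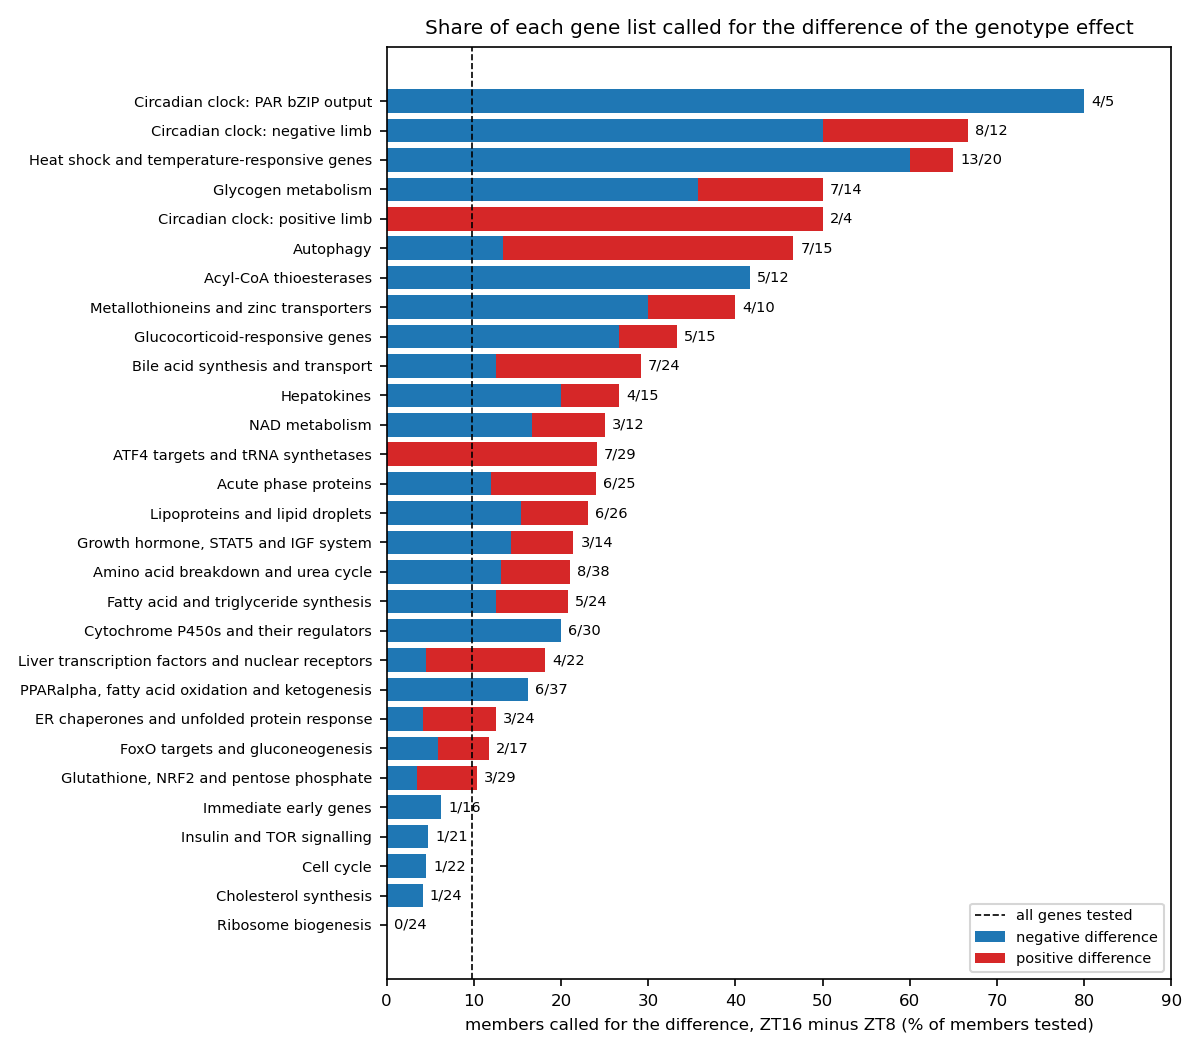
Share of tested members called for the difference of the genotype effect (horizontal axis, % of members tested) in each of 29 gene lists, split into negative (blue) and positive (red) differences, with the counts beside each bar. The dashed line is the share of all genes, 9.75%, and 24 lists lie above it.

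The clock genes had the largest share of called members. Of 21 tested members of the 3 clock lists, 14 were called, 4 positive and 10 negative, with a median difference of -0.63. By class 8 were gained, 4 lost and 2 strengthened. The genotypes did not overlap at ZT16 for 11 of the 21, compared with 19.3% of all genes, and at ZT8 for 3 of the 21, compared with 15.5%.

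In the positive limb, CLOCK and BMAL1 form the dimer that activates the loop. Clock measured 1.11, 1.27 and 1.54 in ZT8 controls and 0.36, 0.62 and 0.82 in ZT8 knockouts, with no overlap. At ZT16 it was 1.68, 1.91 and 2.05 in controls and 1.80, 1.95 and 1.99 in knockouts, with overlap. The effect went from -0.70 to 0.03, a difference of 0.73 ± 0.12 (SE, adjusted p = 0.00013). The dimmer probes of Clock gave 0.17 (adjusted p = 0.6) and 0.11 (adjusted p = 0.63). Their effects were -0.39 and -0.42 at ZT8 and -0.22 and -0.31 at ZT16, so the lost class of Clock rests on its brightest probe. Arntl (Bmal1) went from -1.41 to 0.48, with 1.89 ± 0.47 (SE, adjusted p = 0.0078). Signal well above background was found on 5 of 6 ZT8 control arrays and 2 of 6 ZT8 knockout arrays, so its ZT8 level is near the limit of detection. Another background correction gave an adjusted p of 0.057. Dimmer Arntl probes gave 1.36 (adjusted p = 0.028) and 0.47 (adjusted p = 0.68), the latter with an effect of 0.08 at ZT8. Rora (-0.27 ± 0.12, SE, adjusted p = 0.17), a nuclear receptor that activates Bmal1, did not pass the test.

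In the negative limb all 3 Period genes, whose proteins repress the CLOCK-BMAL1 dimer, had gained effects. Per1 (chr11:68923364-68923423) measured 3.11, 3.70 and 4.35 in ZT8 controls, 3.28, 3.88 and 4.16 in ZT8 knockouts, 3.49, 3.75 and 3.92 in ZT16 controls and 1.24, 1.73 and 2.85 in ZT16 knockouts. Only the ZT16 knockouts were low. Its effect went from 0.07 to -1.80, with 0.02 at ZT12 (adjusted p = 0.94). The difference was -1.87 ± 0.29 (SE, adjusted p = 9.8e-05).

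Per2 (chr1:93312595-93312654) measured 1.56, 2.20 and 2.43 in ZT8 controls, 1.51, 2.13 and 2.38 in ZT8 knockouts, 3.25, 3.53 and 3.67 in ZT16 controls and 0.74, 1.09 and 1.75 in ZT16 knockouts. Controls rose by 1.39 (adjusted p = 4.8e-08) where knockouts fell by 0.77 (adjusted p = 0.00029). The difference was -2.16 ± 0.22 (SE, adjusted p = 3.2e-07), and the ZT12 effect of -0.90 (adjusted p = 2.5e-05) lay between. Per3 fell in both genotypes, by 1.05 in controls and by 2.80 in knockouts, a difference of -1.75 ± 0.23 (SE, adjusted p = 8.5e-06). The call of Per3 was lost with outlier spots kept (adjusted p = 0.44) and in a fit of the authors' deposited table (adjusted p = 0.45). Another gained member was Cry2, which also represses the dimer, at -0.65 ± 0.15 (SE, adjusted p = 0.0037), or 0.077 with its probes averaged. Cry1 did not pass the test, at -0.46 ± 0.29 (SE, adjusted p = 0.39).

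Ciart, a repressor of the dimer (chr3:95682433-95682492), had the widest gap. It measured 0.03, 0.63 and 1.05 in ZT8 controls and -0.93, -0.58 and -0.19 in ZT8 knockouts, then -2.58, -1.21 and -0.25 in ZT16 controls. It was not well above background on any ZT16 knockout array. Controls were at least 13.9-fold higher than knockouts at ZT16, a bound taken from the lowest signal well above background on each array. Bhlhe41, another repressor, was well above background only in ZT8 controls among the 4 groups. Controls were at least 3.55-fold higher than knockouts at ZT8, and at ZT16 neither genotype was measured, so its lost class rests on the detection limit.

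The Rev-erb receptors, which repress Bmal1, took opposite signs. Nr1d1 went from -0.67 to 0.61, with a difference of 1.29 ± 0.36 (SE, adjusted p = 0.018) and neither effect called without knockout ZT8 replicate 3, while Nr1d2 went from 0.36 to -0.70, with -1.05 ± 0.24 (SE, adjusted p = 0.0048). Both genes fell with time in both genotypes, Nr1d1 by 5.60 in controls and by 4.32 in knockouts. Like the dim genes Arntl and Bhlhe41, Nr1d1 was measured in 39 of 40 alternatives, so its ZT16 level may lie near background. Its difference ran from 0.70 to 1.44 over those alternatives. Bhlhe40 (-0.40 ± 0.18, SE, adjusted p = 0.17), Csnk1d (-0.16 ± 0.09, SE, adjusted p = 0.3) and Csnk1e (-0.01 ± 0.20, SE, adjusted p = 0.99) did not pass. Without knockout ZT8 replicate 3 Bhlhe40 did (adjusted p = 0.011).

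Of the output genes, the PAR bZIP activators Tef, Hlf and Dbp and the deubiquitinase Usp2 were called with negative signs, and the repressor Nfil3 (0.29 ± 0.27, SE, adjusted p = 0.6) was not. Usp2 measured 2.79, 3.18 and 3.52 in ZT8 controls, 2.42, 3.26 and 3.63 in ZT8 knockouts, 2.60, 3.47 and 3.69 in ZT16 controls and 0.83, 1.15 and 1.48 in ZT16 knockouts. As with Per1, the ZT16 knockouts alone were low, and the difference was -2.21 ± 0.26 (SE, adjusted p = 2e-06). Tef gave -1.48 ± 0.17 (SE, adjusted p = 1.9e-06) and counted as reversed without knockout ZT8 replicate 3. Dbp gave -1.22 ± 0.34 (SE, adjusted p = 0.019, or 0.064 with the slide as a block) and Hlf -0.91 ± 0.23 (SE, adjusted p = 0.0091). Dbp fell in both genotypes, by 4.66 in controls and by 5.88 in knockouts.

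**Figure D4:**
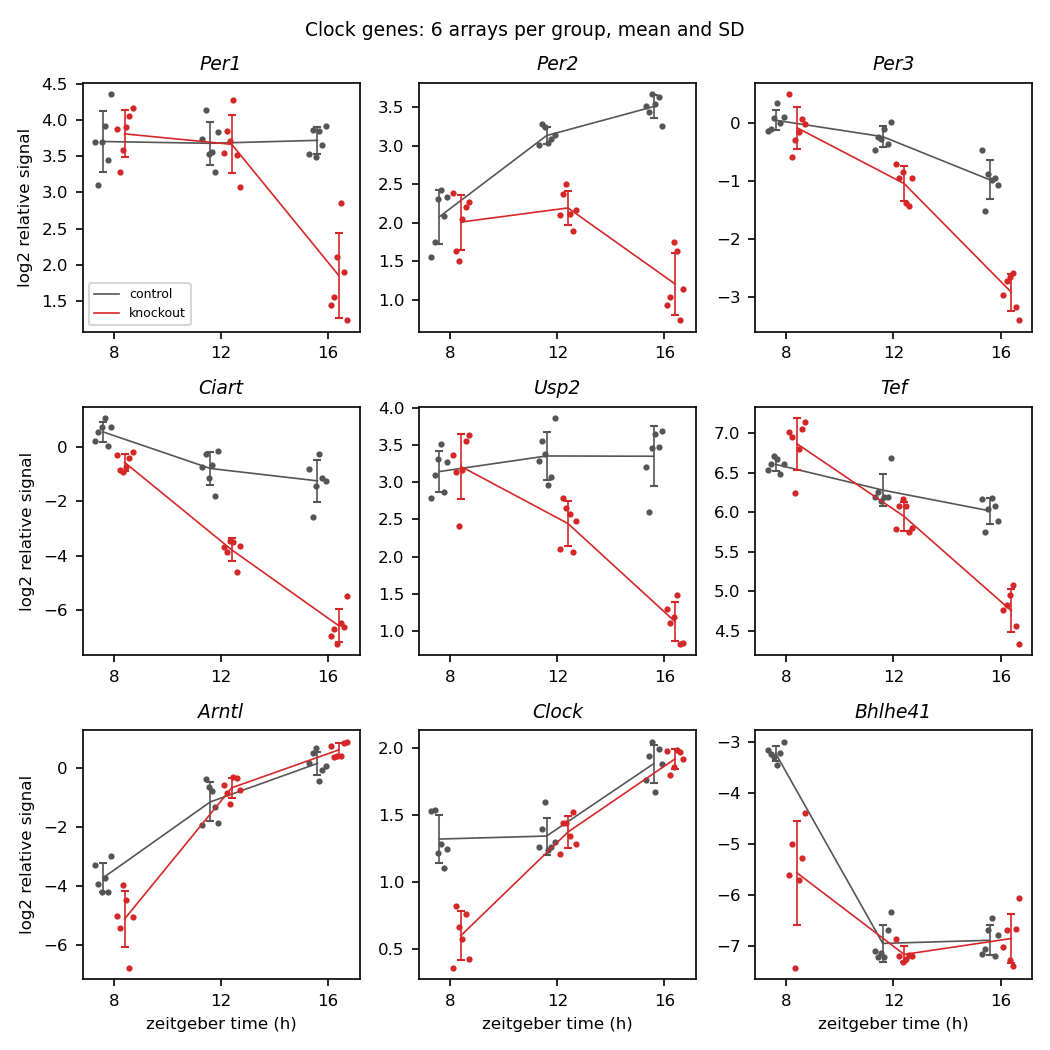
Log2 signal relative to the array's 75th percentile (vertical axis) of 9 clock genes at ZT8, ZT12 and ZT16 (horizontal axis, hours) in controls (grey) and knockouts (red); points are arrays, and lines join group means with SD bars (n = 6). The Period genes, Usp2 and Tef part at ZT16, where knockouts are low, while the means of Arntl, Clock and Bhlhe41 differ at ZT8, where those of knockouts are low, and come together at ZT16.

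CLOCK-BMAL1 binds the E-box CACGTG, and the PAR bZIP factors bind D-boxes, of which TTA and TAA around TG or CG were searched here. Both strands were searched in the 250 bases before the first listed start of each gene, from RefSeq on build GRCm38.p6, which held 27025 genes. The E-box, which reads the same on both strands, was found in 4 of 13 called clock genes with a sequence, in 1 of 4 that were not called, and in 6.05% of all genes. The D-boxes were found in 1 of the 13, in 0 of the 4 and in 0.962% of all genes. Shown are 3 of the 4 called genes with an E-box, at chr3:95882229-95882478 (minus strand), chr11:69098699-69098948 and chr15:81802423-81802672 (plus strand), and the gene with D-boxes at chr4:151044666-151044915 (minus strand), with matches in capitals.
Ciart: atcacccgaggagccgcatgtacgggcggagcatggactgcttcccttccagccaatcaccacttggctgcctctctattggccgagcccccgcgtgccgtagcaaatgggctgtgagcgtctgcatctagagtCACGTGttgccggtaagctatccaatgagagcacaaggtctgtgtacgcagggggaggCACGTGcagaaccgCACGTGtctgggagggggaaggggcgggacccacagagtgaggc
Per1: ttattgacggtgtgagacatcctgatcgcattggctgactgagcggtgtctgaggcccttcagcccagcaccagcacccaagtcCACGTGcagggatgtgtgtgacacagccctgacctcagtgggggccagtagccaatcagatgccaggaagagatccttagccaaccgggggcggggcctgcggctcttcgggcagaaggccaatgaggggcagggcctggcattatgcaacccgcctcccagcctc
Tef: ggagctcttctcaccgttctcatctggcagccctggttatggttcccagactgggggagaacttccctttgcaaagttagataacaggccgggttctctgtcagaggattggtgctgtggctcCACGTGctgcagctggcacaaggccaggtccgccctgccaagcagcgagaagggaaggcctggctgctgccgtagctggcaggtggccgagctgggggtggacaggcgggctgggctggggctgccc
Per3: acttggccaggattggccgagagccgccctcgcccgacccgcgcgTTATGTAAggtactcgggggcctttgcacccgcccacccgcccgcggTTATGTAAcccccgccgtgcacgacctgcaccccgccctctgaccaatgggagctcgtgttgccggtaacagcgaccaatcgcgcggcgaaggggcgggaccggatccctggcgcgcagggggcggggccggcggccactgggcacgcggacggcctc
Ciart held 3 E-boxes, Per1 and Tef held 1 each, and Per3 held 2 D-boxes. The match is a description of these letters and no measure of binding.

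Heat shock and temperature-responsive genes were called in 13 of 20 members, 12 negative and 1 positive, with a median difference of -0.52. By class 7 were gained, 5 reversed and 1 lost. In controls 16 of the 20 rose from ZT8 to ZT16 and 2 fell. In knockouts 13 rose and 3 fell. Over all genes 26.6% changed in either direction in controls and 28.9% in knockouts. Rises made up 3063 of 6086 such changes in controls and 3536 of 6607 in knockouts. Hspa8, the constitutive HSC70 chaperone (chr9:40612755-40613050), measured 5.39, 5.55 and 5.62 in ZT8 controls, 5.63, 6.20 and 6.34 in ZT8 knockouts, 7.09, 7.18 and 7.26 in ZT16 controls and 6.59, 6.79 and 7.0 in ZT16 knockouts. Knockouts were above at ZT8 and below at ZT16, with no overlap at either time. Controls rose by 1.63 (adjusted p = 1.5e-13) and knockouts rose by 0.66 (adjusted p = 2.1e-06), so the difference was -0.98 ± 0.13 (SE, adjusted p = 1.3e-05).

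Other chaperones had the same sign. Hsph1, a nucleotide exchange factor of HSP70, gave -1.15 ± 0.24 (SE, adjusted p = 0.0017), Dnaja1, an HSP40 co-chaperone, -0.89 ± 0.16 (SE, adjusted p = 0.0005), and Hsp90aa1 -0.82 ± 0.18 (SE, adjusted p = 0.0027). The dimmer probes of Dnaja1 gave -0.53 (adjusted p = 0.059) and -0.0037, neither of them called. The stress-inducible Hspa1a (0.30, adjusted p = 0.85) and Hspa1b (-0.69, adjusted p = 0.47) were not called, and neither was their activator Hsf1 (-0.08, adjusted p = 0.79). The positive member was Cirbp, the cold-inducible RNA binding protein. It measured 2.49, 2.77 and 3.02 in ZT8 controls, 1.99, 2.46 and 2.67 in ZT8 knockouts, 0.67, 0.77 and 1.05 in ZT16 controls and 1.15, 1.56 and 2.11 in ZT16 knockouts. Its effect went from -0.42 to 0.84, a difference of 1.26 ± 0.19 (SE, adjusted p = 7.3e-05). The other cold-inducible gene of the list, Rbm3, had the opposite sign, at -0.53 ± 0.12 (SE, adjusted p = 0.0027), and counted as gained without knockout ZT8 replicate 3, as did Hsp90aa1.

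Heat shock factors bind inverted GAA and TTC repeats. The triplet orders GAA, TTC, GAA and TTC, GAA, TTC with 2 bases between triplets, which are each other's complement, were found in 1 of 9 called members with a sequence, in 0 of 6 that were not called and in 0.4% of all genes. The member was Hspe1, the mitochondrial co-chaperonin, at chr1:55087898-55088147 (plus strand), shown with its 2 overlapping matches in capitals.
Hspe1: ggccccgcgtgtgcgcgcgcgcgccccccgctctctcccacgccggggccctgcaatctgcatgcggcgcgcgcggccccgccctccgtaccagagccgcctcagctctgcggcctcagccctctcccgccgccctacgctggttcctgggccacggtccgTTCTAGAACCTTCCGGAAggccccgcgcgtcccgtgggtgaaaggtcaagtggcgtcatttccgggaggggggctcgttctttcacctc
Its effect was lost, from 0.40 at ZT8 to -0.10 at ZT16, with a difference of -0.50 ± 0.12 (SE, adjusted p = 0.0059).

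Glycogen genes were called in 7 of 14 members, 2 positive and 5 negative, with a median difference of -0.15. Gys2, the liver glycogen synthase (chr6:142371157-142371216), measured 6.19, 6.40 and 6.48 in ZT8 controls, 6.55, 7.50 and 7.60 in ZT8 knockouts, 5.97, 6.34 and 6.43 in ZT16 controls and 5.71, 5.81 and 6.00 in ZT16 knockouts. Knockouts stood above all controls at ZT8, with replicate 3 the lowest of them, and overlapped with controls only through 1 low control array at ZT16. The difference was -1.43 ± 0.18 (SE, adjusted p = 6.3e-06). Ppp1r3b, the main liver glycogen-targeting subunit, measured 5.90, 6.12 and 6.60 in ZT8 controls, 6.94, 7.35 and 7.53 in ZT8 knockouts, 7.03, 7.14 and 7.35 in ZT16 controls and 6.51, 6.79 and 7.17 in ZT16 knockouts. The effect crossed from 1.1 to -0.30, a difference of -1.41 ± 0.16 (SE, adjusted p = 1.7e-06). Its paralog Ppp1r3c took the opposite course, as given above.

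The branching enzyme Gbe1 gained a low effect, from -0.24 to -1.15, with -0.91 ± 0.22 (SE, adjusted p = 0.006). Phosphoglucomutase Pgm1 strengthened from -0.37 to -0.75. Glycogenin Gyg had a positive difference of 0.54 ± 0.16 (SE, adjusted p = 0.031). Ppp1r3g, another targeting subunit, was well above background on 20 of the 24 arrays and by its values 6.16 higher in knockouts at ZT8 and 6.81 higher at ZT16 on the log2 scale. Its difference was not called (0.65, adjusted p = 0.59).

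Metallothioneins bind zinc and copper and are induced by metals, glucocorticoids and inflammation. Of 10 tested members of this list, 4 were called, with a median difference of 0.07. Mt2 (chr8:96697371-96697430) measured 1.46, 2.24 and 4.28 in ZT8 controls, 5.74, 6.25 and 6.89 in ZT8 knockouts, 3.82, 5.03 and 5.50 in ZT16 controls and 4.39, 5.60 and 6.92 in ZT16 knockouts. ZT8 controls were below every knockout of that time, and the genotypes overlapped at ZT16. The effect was 3.85 at ZT8 and 0.85 at ZT16, with 3.19 at ZT12 (adjusted p = 1.9e-06), a difference of -3.00 ± 0.66 (SE, adjusted p = 0.0028). Mt1 measured 3.78, 4.08 and 5.68 in ZT8 controls, 7.10, 7.21 and 7.49 in ZT8 knockouts, 5.17, 6.15 and 7.15 in ZT16 controls and 6.09, 6.90 and 7.55 in ZT16 knockouts, a difference of -2.16 ± 0.47 (SE, adjusted p = 0.0028). In both genes controls rose with time, Mt2 by 2.45 (adjusted p = 0.00014) and Mt1 by 1.77 (adjusted p = 0.00015).

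Of the zinc and manganese exporters, Slc30a1 gained a low effect, from 0.05 to -0.77, with -0.82 ± 0.16 (SE, adjusted p = 0.00078). Slc30a10 weakened from -2.25 to -0.74, with 1.51 ± 0.30 (SE, adjusted p = 0.0011). The metal sensor Mtf1 (-0.05, adjusted p = 0.89) was not called. MTF1 binds metal response elements, and their cores TGCACNC and TGCGCNC were searched on both strands of the 250 bases before the first listed start. Other starts of a gene, and bases after the start, were not searched. They were found in 4 of 4 called members with a sequence, in 1 of 4 that were not called and in 21.3% of all genes. These windows of the neighbouring metallothionein genes are shown, at chr8:94178839-94179088 and chr8:94172368-94172617 (GRCm38.p6, plus strand), with cores in capitals.
Mt1: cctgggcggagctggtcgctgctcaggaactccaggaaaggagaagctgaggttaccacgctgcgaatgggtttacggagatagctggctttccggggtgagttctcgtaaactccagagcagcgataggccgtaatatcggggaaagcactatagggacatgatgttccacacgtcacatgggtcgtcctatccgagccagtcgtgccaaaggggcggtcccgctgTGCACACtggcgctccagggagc
Mt2: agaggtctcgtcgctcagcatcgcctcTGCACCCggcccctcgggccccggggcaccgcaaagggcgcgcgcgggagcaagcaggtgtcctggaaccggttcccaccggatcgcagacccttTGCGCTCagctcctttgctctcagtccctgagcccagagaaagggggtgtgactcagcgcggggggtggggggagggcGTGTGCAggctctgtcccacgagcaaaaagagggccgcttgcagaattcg
Mt1 held 1 core and Mt2 held 3 in these windows.

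Acyl-CoA thioesterases cleave fatty acyl-CoA to free fatty acid. Of 12 members 5 were called, all negative, with a median difference of -0.39. Without knockout ZT8 replicate 3 the count was 8, 7 negative and 1 positive, beside 3250 of all 22892 genes. The called genes Acot2, Acot3, Acot4 and Acot5 belong with Acot1 to a cluster on chromosome 12, and the remaining called member was Acot7 (-0.47, adjusted p = 0.034). Acot5 (chr12:85416634-85416693) measured -2.93, -2.55 and -1.79 in ZT8 controls, -2.86, -0.70 and 0.83 in ZT8 knockouts, -1.46, -1.17 and -0.88 in ZT16 controls and -2.71, -2.34 and -1.65 in ZT16 knockouts. Knockouts were lower at ZT16 with no overlap, and the ZT8 groups overlapped. The difference was -2.75 ± 0.54 (SE, adjusted p = 0.001). A dimmer Acot5 probe gave -0.28 (adjusted p = 0.6). Acot4 gave -1.95 ± 0.29 (SE, adjusted p = 4.6e-05) and the mitochondrial Acot2 -1.84 ± 0.46 (SE, adjusted p = 0.0086). Acot1 was not called at -2.17 ± 0.79 (SE, adjusted p = 0.079), and was at -2.95 without knockout ZT8 replicate 3 (adjusted p = 0.001). Members of this cluster are close paralogs, and how far their probes cross-hybridise was not determined.

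Genes of PPARα, fatty acid oxidation and ketogenesis depended on that array more than any other list. With all arrays 6 of 37 members were called, all negative, with a median difference of -0.40. Without knockout ZT8 replicate 3 the count was 21 of 37, again all negative, beside 3250 of all 22892 genes. With all arrays the sign was negative for 34 of 37 members, called or not. Among all genes not called for the difference, 10652 had a negative and 10007 a positive sign. In knockouts 18 of the 37 members fell from ZT8 to ZT16 and 0 rose, whereas in controls 3 fell and 4 rose. Over all genes 28.9% changed in either direction in knockouts, with 3536 of 6607 rising, and 26.6% in controls, with 3063 of 6086 rising. Called with all arrays were the carnitine transporter Slc22a5 (-1.38 ± 0.30, SE, adjusted p = 0.0026), the peroxisome factor Pex11a (-1.38 ± 0.28, SE, adjusted p = 0.0013), the peroxisomal thiolase Acaa1a (-0.92 ± 0.13, SE, adjusted p = 3.6e-05), the acylcarnitine carrier Slc25a20 (-0.65, adjusted p = 0.015), and the dehydrogenases Hadh (-0.51, adjusted p = 0.027) and Acadl (-0.40, adjusted p = 0.031).

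Slc22a5 measured 1.04, 1.40 and 1.64 in ZT8 controls, 1.40, 2.83 and 3.62 in ZT8 knockouts, 1.07, 1.61 and 1.93 in ZT16 controls and 1.29, 1.43 and 1.77 in ZT16 knockouts. The lowest ZT8 knockout was replicate 3, at 1.40, and the other 5 ran from 2.57 to 3.62, above every control. Ppara itself gave -0.59 (adjusted p = 0.067) with all arrays and -0.81 (adjusted p = 0.00035) without it. Fgf21, a fasting hormone and PPARα target, was called in neither case.

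**Figure D5:**
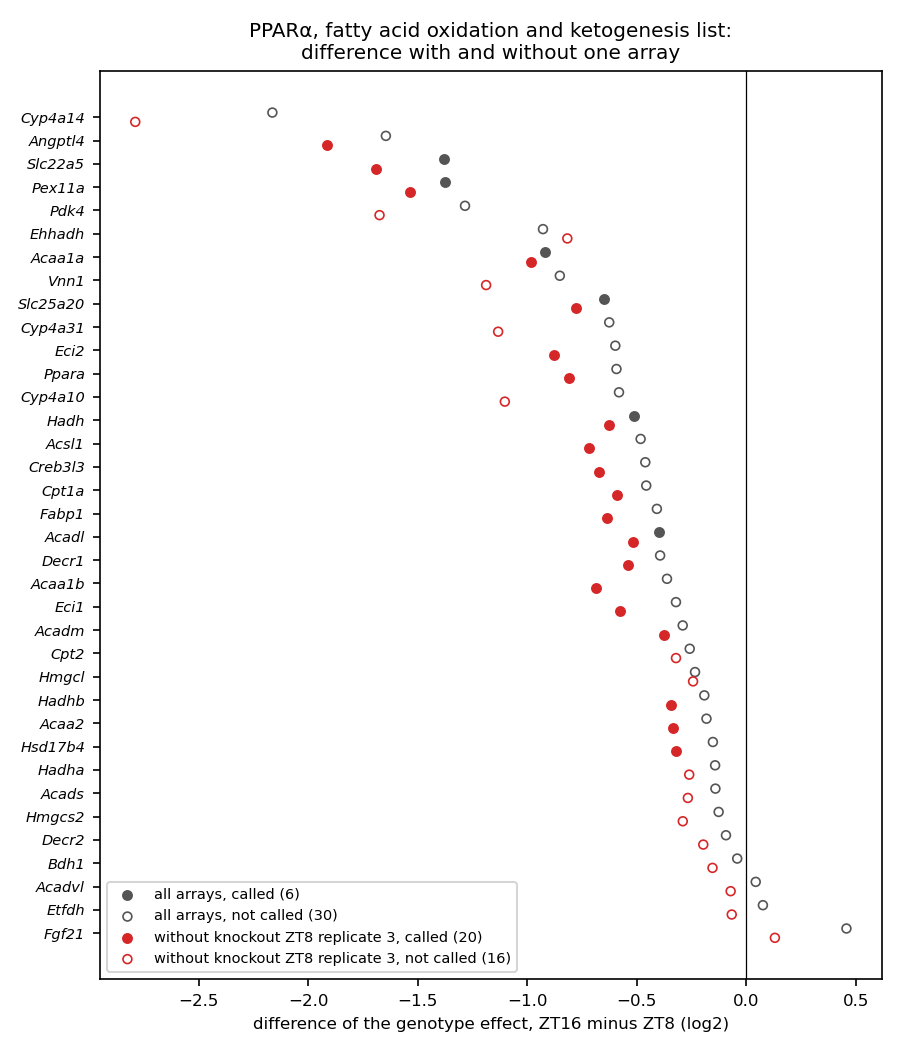
Difference of the genotype effect, ZT16 minus ZT8 (horizontal axis, log2), for 36 of the 37 tested members of the PPARα, fatty acid oxidation and ketogenesis list (vertical axis), with all arrays (grey) and without knockout ZT8 replicate 3 (red); filled points are called and open points are not. Filled points number 6 with all arrays and 20 of these 36 without that array, all left of 0.

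In fatty acid and triglyceride synthesis 5 of 24 members were called, 3 negative and 2 positive, with a median of -0.23. Beside Thrsp these were the lipins Lpin1 (-1.79 ± 0.55, SE, adjusted p = 0.034) and Lpin2 (-1.05 ± 0.27, SE, adjusted p = 0.0098, or 0.07 with its probes averaged), which dephosphorylate phosphatidic acid, the acyltransferase Agpat2 (0.41, adjusted p = 0.027) and the elongase Elovl5. Elovl5 measured 5.14, 5.40 and 6.16 in ZT8 controls, 4.66, 4.86 and 5.21 in ZT8 knockouts, 4.15, 4.54 and 5.16 in ZT16 controls and 5.11, 5.26 and 5.99 in ZT16 knockouts. It overlapped narrowly at both times and reversed from -0.64 to 0.76, a difference of 1.40 ± 0.28 (SE, adjusted p = 0.0011). Of its other probes, the brighter gave 1.57 (adjusted p = 0.0018) and the dimmer -0.70 (adjusted p = 0.51).

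Lipid droplet and lipoprotein genes were called in 6 of 26 members, with a median of -0.21. The perilipins, which coat droplets, differed from one another. Plin4 (-1.93 ± 0.50, SE, adjusted p = 0.012) and Plin5 (-1.15 ± 0.34, SE, adjusted p = 0.026) gained low effects, which counted as reversed without knockout ZT8 replicate 3. Plin3 gained a high effect, at 0.69 ± 0.11 (SE, adjusted p = 0.00013). Lpl, lipoprotein lipase, measured -0.12, 0.50 and 0.80 in ZT8 controls, 2.55, 2.80 and 3.28 in ZT8 knockouts, -1.28, -0.77 and 0.09 in ZT16 controls and 2.98, 3.36 and 3.89 in ZT16 knockouts. By this probe knockouts stood far above controls at both times and the effect strengthened from 2.47 to 4.04, a difference of 1.57 ± 0.38 (SE, adjusted p = 0.0061). The next brightest Lpl probe gave 0.32 (adjusted p = 0.37), with effects of 0.04 at ZT8 and 0.36 at ZT16. The remaining Lpl probes gave 1.26 to 2.35 and were called (adjusted p up to 0.046).

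Glucocorticoid-responsive genes were called in 5 of 15 members, 4 negative and 1 positive, with a median of -0.49. Beside Fkbp5 the negative ones were Zbtb16, a zinc finger repressor (-1.87 ± 0.49, SE, adjusted p = 0.011), the cell cycle inhibitor Cdkn1a (-2.71 ± 0.72, SE, adjusted p = 0.014) and Tsc22d3, or GILZ (-1.05 ± 0.30, SE, adjusted p = 0.019). All rose in controls from ZT8 to ZT16, Cdkn1a, well above background on 20 of the 24 arrays, by 5.34 in its values (adjusted p = 2.6e-09). The kinase Sgk1 went the other way. It measured 0.93, 1.34 and 2.17 in ZT8 controls, 1.63, 2.26 and 2.89 in ZT8 knockouts, 1.00, 1.42 and 1.71 in ZT16 controls and 3.42, 3.66 and 4.32 in ZT16 knockouts. Only ZT16 knockouts stood apart, and the difference was 1.61 ± 0.39 (SE, adjusted p = 0.0073). The receptor gene Nr3c1 gave -0.29 (adjusted p = 0.087, or 0.0089 without knockout ZT8 replicate 3), and Tat -0.18 (adjusted p = 0.75).

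Amino acid breakdown genes were called in 8 of 38 members, 6 of them gained. The histidine enzymes Hal (0.99 ± 0.22, SE, adjusted p = 0.0032) and Amdhd1 (0.94 ± 0.19, SE, adjusted p = 0.0011) gained high effects while Uroc1, which acts between them, gained a low effect (-0.62, adjusted p = 0.012). Cbs, of transsulfuration, gave 0.93 ± 0.16 (SE, adjusted p = 0.00023), and counted as reversed without knockout ZT8 replicate 3. Afmid, of tryptophan breakdown, gave -1.06 ± 0.19 (SE, adjusted p = 0.00045). The urea cycle enzyme Asl lost a high effect, from 0.75 to -0.21 (adjusted p = 0.0067). Without knockout ZT8 replicate 3 the count was 13 of 38, beside 3250 of all 22892 genes.

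tRNA synthetases and ATF4 targets were called in 7 of 29 members, all positive, with a median of 0.27. Apart from Trib3 all were synthetases: Cars, Mars1 and Nars had low effects at ZT8 that were lost, and Gars, Lars and Sars were reversed. Mars1 measured 1.48, 1.56 and 1.72 in ZT8 controls, 0.46, 0.62 and 0.65 in ZT8 knockouts, 1.13, 1.35 and 1.56 in ZT16 controls and 0.59, 1.28 and 1.47 in ZT16 knockouts. Genotypes were apart at ZT8 and overlapped at ZT16, and the difference was 0.82 ± 0.14 (SE, adjusted p = 0.00026). Lars gave 0.67 ± 0.10 (SE, adjusted p = 4e-05) and Cars 0.92 ± 0.19 (SE, adjusted p = 0.0013). In controls 3 of the 29 rose with time and 7 fell, and in knockouts 11 rose and 1 fell. Over all genes 26.6% changed in either direction in controls, with 3063 of 6086 rising. In knockouts 28.9% of all genes did, with 3536 of 6607 rising. ER chaperone genes were called in 3 of 24, and in 5 without knockout ZT8 replicate 3. Of the 3, Herpud1, of ER-associated degradation, strengthened to -1.87, Dnajc10 gained a high effect and Hspa13 lost a low one (adjusted p = 0.037), a call lost in 16 of 40 alternatives (adjusted p up to 0.13).

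Bile acid and sterol genes were called in 7 of 24 members, 4 positive and 3 negative. Hsd3b7, a dehydrogenase of bile acid synthesis (chr7:134947251-134947310), measured 7.23, 7.44 and 7.56 in ZT8 controls, 6.02, 6.44 and 6.62 in ZT8 knockouts, 6.41, 6.59 and 6.71 in ZT16 controls and 6.83, 6.91 and 7.0 in ZT16 knockouts. Knockouts were below all controls at ZT8 and above all at ZT16. The difference was 1.37 ± 0.14 (SE, adjusted p = 2.9e-07). The sterol exporter pair Abcg5 and Abcg8, divergent neighbours on chromosome 17, gained high effects together, at 0.93 (adjusted p = 0.027) and 1.09 (adjusted p = 0.013). The bile acid receptor gene Nr1h4 strengthened from -0.53 to -1.42, with -0.89 ± 0.19 (SE, adjusted p = 0.0022).

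Cytochrome P450 genes and their regulators were called in 6 of 30 members, all negative. Cyp2a5 gained a low effect, with 8.55, 8.83 and 9.22 in ZT16 controls against 6.12, 6.98 and 7.81 in ZT16 knockouts and overlap at ZT8. Its difference was -1.73 ± 0.27 (SE, adjusted p = 8e-05), and its close paralog Cyp2a4 gave -1.92 (adjusted p = 3e-04). How far their probes cross-hybridise was not determined either. Por, the electron donor of microsomal P450s, lost a high effect, from 1.38 to 0.18, with -1.20 ± 0.20 (SE, adjusted p = 0.00016). Alas1, which starts heme synthesis, also lost one (-1.48, adjusted p = 0.045). Nr1i2, the xenobiotic receptor PXR, reversed from 0.47 to -0.71, with -1.18 ± 0.19 (SE, adjusted p = 0.00018). The list's largest difference was that of Cyp3a44, which weakened (-3.33, adjusted p = 0.034) and was well above background on 21 of the 24 arrays.

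Of glutathione, NRF2 and pentose phosphate genes, Srxn1, which restores oxidised peroxiredoxins, gained a high effect. It measured 2.95, 3.09 and 3.27 in ZT16 controls and 3.75, 4.07 and 4.23 in ZT16 knockouts, with overlap at ZT8, and gave 0.82 ± 0.18 (SE, adjusted p = 0.0023). Ephx1, the microsomal epoxide hydrolase, lost a low effect, from -0.93 to -0.03 (adjusted p = 0.015). Gstt2 gave -0.78 (adjusted p = 0.011) by its brighter probe and 0.92 (adjusted p = 0.075) by the other, so it has no settled direction.

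In the lists near the background, the called members were few. Sesn3, a sestrin that FoxO factors induce, gained a high effect, with 0.78, 0.94 and 1.06 in ZT16 controls against 1.65, 1.70 and 1.84 in ZT16 knockouts and a difference of 0.73 ± 0.13 (SE, adjusted p = 0.00042). Foxo1 itself gave -0.49 (adjusted p = 0.044), a call lost in 22 of 40 alternatives (adjusted p up to 0.1). Rrm2, the ribonucleotide reductase subunit of dividing cells, gave -1.27 (adjusted p = 0.0085). Ier3, an immediate early gene, weakened from 3.00 to 1.98 (adjusted p = 0.014).

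Among acute phase genes 6 of 25 were called, 3 positive and 3 negative. The positive genes were the 3 fibrinogen chains, which lie side by side on chromosome 3. Fgb gained a high effect, with 9.23, 9.39 and 9.45 in ZT16 controls against 9.73, 9.92 and 9.99 in ZT16 knockouts, and gave 0.57 ± 0.10 (SE, adjusted p = 0.00036). Fga (1.17 ± 0.20, SE, adjusted p = 3e-04) and Fgg (0.63 ± 0.12, SE, adjusted p = 0.00048) were reversed with all arrays and gained without knockout ZT8 replicate 3. A dimmer Fga probe gave 0.07 (adjusted p = 0.9), with effects of -0.19 at ZT8 and -0.12 at ZT16, so the result of Fga rests on its brightest probe. The negative genes were Lcn2, the constitutive serum amyloid Saa4 (-1.56 ± 0.30, SE, adjusted p = 8e-04) and the IL-6 receptor chain Il6ra (-1.11 ± 0.20, SE, adjusted p = 0.00044).

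Autophagy genes were called in 7 of 15, of which 5 were positive. Gabarapl1, an ATG8 family protein, strengthened from 0.26 to 1.03, with 0.77 ± 0.14 (SE, adjusted p = 0.0005), and the cargo receptor Sqstm1 from 0.19 to 0.59. Bnip3, a receptor of mitophagy, gained a low effect at -1.08 ± 0.18 (SE, adjusted p = 2e-04), which counted as reversed without knockout ZT8 replicate 3. Of hepatokines, 4 of 15 were called. Fgf1 gained a low effect, with 5.27, 5.38 and 5.53 in ZT16 controls against 2.66, 3.37 and 3.73 in ZT16 knockouts, and a difference of -2.02 ± 0.25 (SE, adjusted p = 4.7e-06). Tsku strengthened from -0.80 to -2.77, and Enho, which encodes adropin, from 1.04 to 2.56.

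Of NAD genes, 3 of 12 were called, and 5 without knockout ZT8 replicate 3. Nampt, the rate-limiting enzyme of NAD salvage (chr12:33535475-33535534), measured 1.21, 1.47 and 1.74 in ZT8 controls, 1.51, 1.96 and 2.20 in ZT8 knockouts, 2.03, 2.66 and 3.12 in ZT16 controls and 1.00, 1.48 and 1.95 in ZT16 knockouts. Controls rose by 1.20 (adjusted p = 4.3e-06), knockouts fell by 0.48 (adjusted p = 0.042), and the difference was -1.68 ± 0.25 (SE, adjusted p = 5.4e-05). Without knockout ZT8 replicate 3 it counted as gained. The other called members were Nmnat3 (0.66, adjusted p = 0.015) and the nicotinamide riboside kinase Nmrk1 (-0.96, adjusted p = 0.045). Dimmer probes of Nmnat3 gave 1.02 (adjusted p = 0.003), 0.71 (adjusted p = 0.094) and, by the dimmest, -0.31 (adjusted p = 0.67). The call of Nmrk1 was lost in 20 of 40 alternatives (adjusted p up to 0.088). Its dimmer probes gave -1.79 (adjusted p = 3.2e-05) and -0.80 (adjusted p = 0.031). Of liver transcription factors 4 of 22 were called, and 7 without that array. Esr1, the estrogen receptor alpha gene, lost a high effect, from 1.09 to -0.17, with 1.01 at ZT12 (adjusted p = 3e-08) and a difference of -1.25 ± 0.16 (SE, adjusted p = 8e-06). Thra, a thyroid hormone receptor gene, reversed from -0.26 to 0.68. In the growth hormone list 3 of 14 were called. Cux2, a female-biased repressor, was well above background on 2 of 6 ZT8 control arrays and on every knockout array of both times, and its knockouts stood above all controls at each time. Its ZT8 effect is therefore not settled in size, and its call for the difference (adjusted p = 0.00037) was lost with another background correction (adjusted p = 0.096) and in a fit of the authors' deposited table (adjusted p = 0.2). Igfbp4 gained an effect of -0.62 at ZT16 and Stat5b one of 0.57. The call of Stat5b (adjusted p = 0.036) was lost without knockout ZT8 replicate 3 (adjusted p = 0.06) and in 16 of 40 alternatives in all. The only called member of the insulin and TOR list was Pik3r1, the regulatory subunit of PI3-kinase, which strengthened from -0.80 to -1.80, with -1.01 ± 0.17 (SE, adjusted p = 0.00028).

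In 3 gained genes a group was never well above background. Meox1, a homeobox gene, was at least 2.27-fold higher in knockouts than in controls at ZT16. Adra2a, an adrenergic receptor gene, was at least 3.42-fold higher in ZT16 knockouts. It was also well above background on 2 of 6 ZT8 knockout arrays, and its call for the difference (adjusted p = 0.035) was lost in 17 of 39 alternatives (adjusted p up to 0.13). Serpina5, the protein C inhibitor, was at least 3.08-fold higher in ZT16 controls.

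Markers of other cells were read beside these results. Of 4 red blood cell markers 3 were called with positive differences, 2 of them gained and 1 weakened. The weakened marker was lower in knockouts at both times. The summed linear level of the 4 markers was 396 to 677 in ZT16 knockouts and 227 to 364 in ZT16 controls, with no overlap. At ZT8 this sum was 191 to 404 in knockouts and 233 to 650 in controls. Hbb-bt gained a high effect, at 1.45 ± 0.43 (SE, adjusted p = 0.028), and Hba-a1 at 1.03 (adjusted p = 0.043). Endothelial markers were called for 2 of 8 (Clec4g and Tek), and their sum was 37.0 to 46.9 in ZT16 knockouts and 27.7 to 41.2 in ZT16 controls. Stellate cell markers (0 of 11) and macrophage markers (0 of 11) were not called, at sums of 75.3 to 105 and 108 to 347 in ZT16 knockouts against 55.0 to 93.4 and 51.5 to 176 in ZT16 controls. Of the remaining lists, 1 of 6 bile duct (Sox9), 1 of 6 neutrophil (Ly6g), 1 of 4 exocrine pancreas (Cela2a), 0 of 7 lymphocyte, 0 of 5 adipocyte and 0 of 10 hepatocyte markers were called. The hepatocyte sum was 6468 to 7052 in ZT16 knockouts and 7079 to 8813 in ZT16 controls, with no overlap, and 5391 to 8062 and 6587 to 8065 at ZT8. The part of these cells in the gained effects was not tested.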

How the data were processed

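Liver RNA (200 ng) was labelled with Cy3 and hybridised to 1-colour Agilent arrays, and the scanner files hold spot intensity as deposited, extracted with Agilent Feature Extraction 10.10.1.1 per the submitters' processing notes. Probe positions are mm9, as the file headers give them. The authors' deposited table of log2 values, quantile normalized by its columns, served as an alternative. From each array log2 processed signal minus its 75th percentile was taken. Probes well above background on at least 6 of 36 arrays were kept (34771), 93 with a missing value were dropped, and the brightest probe stood for each of 22892 genes. Limma 3.58.1 in R 4.3.3 fitted the 6 group means and 3 wash batches over all 36 arrays. Named genes were those of each class with the largest differences in each direction that were well above background on all 24 arrays, up to 3 called members of each list by smallest p, every clock gene, and up to 4 genes with a group not above background. Other list members were named after their values were seen. Some genes under this rule are not reported here. The members and lists were chosen with earlier results of these data known. Alternatives covered scaling, background, batch, slide, filters, probe choice, weights and leaving out each array, and the fit without knockout ZT8 replicate 3 for list counts was added after seeing the data. Data of 22892 genes were simulated for this difference, with 50 genes changed at each size. Of changes of 0.5, 1, 2 and -1 (log2), 30%, 64%, 88% and 82% were recovered. The simulation gave 139 calls, compared with 2233 in the real data, so these shares may not carry over to the real arrays. The number of arrays limits the precision.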

Additional observations from a re-analysis of the deposited data

Results flagged for a closer look

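The genotype effect differed between ZT16 and ZT8 for 2233 genes by limma's test of the difference itself, with adjusted p under 0.05.

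Single arrays far from the other 5 of their group were searched for among 444 groups of gene values, and 44 were past Dixon's 95% limit, where chance gives about 1 in 20, or 22.2. Knockout ZT8 replicate 3 was the far array in 11 of them, knockout ZT16 replicate 6 in 8 and knockout ZT16 replicate 5 in 7. The levels below are log2 signal relative to the array's 75th percentile, with the range of the other 5 arrays in brackets.

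In knockout ZT8 replicate 3 these were Vpreb3 at -0.80 (1.24 to 1.95), Gys2 at 6.55 (7.21 to 7.60), Hspa8 at 5.63 (6.17 to 6.34) and Srxn1 at 4.16 (3.23 to 3.49). The same array held Por at 6.90 (7.42 to 7.74), Rrm2 at 1.71 (0.23 to 0.70), Plin4 at -2.24 (-0.23 to 0.78) and Gabarapl1 at 7.70 (8.22 to 8.44). The same array held Nr1d2 at 2.89 (3.39 to 3.65), Bhlhe40 at 2.05 (2.81 to 3.13) and Nfil3 at 0.34 (1.63 to 2.06). In knockout ZT16 replicate 6 these were Nr4a2 at -0.95 (-2.43 to -2.10), Fkbp5 at 1.48 (2.41 to 2.86), Elovl5 at 5.99 (5.11 to 5.33) and Pik3r1 at 0.57 (0.19 to 0.31). The same array held Afmid at 2.65 (2.07 to 2.26), Cux2 at 0.10 (-0.99 to -0.59), Igfbp4 at 3.13 (3.30 to 3.34) and Nr1h2 at 3.21 (3.48 to 3.62). In knockout ZT16 replicate 5 these were Insr at -3.75 (-3.24 to -3.08), Wwox at -0.61 (0.78 to 1.35), Ier3 at -1.37 (-2.11 to -1.84) and Sqstm1 at 6.83 (6.33 to 6.47). The same array held Serpina5 at -5.60 (-7.75 to -7.00), Cry2 at 3.12 (2.96 to 3.02) and Csnk1d at 4.47 (4.20 to 4.29). Control ZT8 replicate 6 had Mt2 at 4.28 (1.46 to 2.47) and Amdhd1 at 4.55 (4.20 to 4.31). Control ZT16 replicate 6 had Slc30a1 at 1.02 (1.65 to 1.90) and Fgb at 9.23 (9.37 to 9.45). Control ZT8 replicate 2 had Acaa1a at 7.48 (7.23 to 7.30) and Cry1 at -3.37 (-4.17 to -3.90). Knockout ZT8 replicate 2 had Acaa1a at 8.03 (7.28 to 7.52) and Tsku at -1.78 (-2.59 to -2.30). Control ZT8 replicate 4 had Gys2 at 6.19 (6.38 to 6.48) and Esr1 at 1.12 (0.49 to 0.67). Control ZT16 replicate 2 had Gys2 at 5.97 (6.27 to 6.43) and Bnip3 at 5.53 (6.13 to 6.27). Control ZT8 replicate 1 had Cux2 at -5.92 (-5.00 to -4.51) and Igfbp4 at 3.24 (3.55 to 3.62). Control ZT8 replicate 5 had Pik3r1 at 1.85 (1.53 to 1.65). Knockout ZT8 replicate 1 had Esr1 at 2.21 (1.57 to 1.79). Control ZT8 replicate 3 had Meox1 at -5.88 (-4.67 to -4.19). Knockout ZT8 replicate 6 had Csnk1e at 0.98 (-0.01 to 0.34).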

How the results depend on the processing

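Of the 103 named genes that were called, 70 kept their direction and call under every alternative run, and of 4432 values over all named genes 151 lost the call, 8 gained one and 1 changed sign. The sign change was that of Gstt2, at 0.0693 (adjusted p = 0.92) when all probes of a gene were averaged. With array weights 4011 genes were called, 1165 lost, 1596 gained and 426 reversed. With adjusted p under 0.01 these counts were 1095, 397, 488 and 71, and 4037 genes changed with time in controls. Without a filter on dim probes 143 genes were reversed. When the smaller effect had to be at most 0.25 of the larger, 383 genes were lost and 567 gained. The cause of the shift with array weights was not tested. Leaving out 1 array at a time gave 1811 to 3250 called genes, the most without knockout ZT8 replicate 3, 578 to 1019 lost, 686 to 1307 gained and 172 to 328 reversed. The ranges were 7257 to 8501 for the genotype effect at ZT8, 8200 to 9814 at ZT16, and 5414 to 6529 and 5842 to 7498 for the change with time in controls and knockouts. With the replicate number as a replicate block 2277 genes were called; deviations of same-numbered arrays correlated at a median of 0.02 over 36 pairs, from -0.20 to 0.18, so the numbers were not taken to pair samples. Signal near background limits the dim genes, for which bounds are given.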
